A study of Mus musculus with 5 samples.

Results

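Neurotransmitter receptor genes encode the proteins on which glutamate, GABA, glycine, acetylcholine, serotonin and dopamine act. They were taken here by symbol, as all genes of the deposited table whose names begin with the family stems Gria, Grid, Grik, Grin, Grm, Gabr, Chrn, Chrm, Glra, Glrb, Htr or Drd. This gave 75 of the 24538 gene names and assembly IDs in the table. Of the 75, 73 encode receptor subunits or receptors. The other 2 match by spelling only: Grid2ip, which encodes a protein that binds a delta glutamate receptor, and Grin1os, a transcript from the strand opposite Grin1. The RNA came from mouse embryonic stem cells, cultured pluripotent cells of the early embryo, of 2 genotypes. There were 3 wildtype libraries (wildtype 1 to 3) and 2 from cells in which a super-enhancer of the pluripotency gene Nanog, labelled −45 SE, was deleted (deleted 1 and 2). Super-enhancers are stretches where many enhancers lie close together. All cultures were kept for 6 days with ethanol or with 4-hydroxytamoxifen (4OHT, an estrogen receptor ligand often used to switch on inducible proteins), and the labels do not say which library had which. Nor do they say whether libraries of a genotype came from separate clones or cultures, so the spread behind each p-value is that of these libraries alone and could be technical.

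Transmitter receptors fall into ligand-gated ion channels, built from several subunits around a pore, and G-protein-coupled receptors, single chains that signal through G proteins. The channels include the AMPA, kainate, NMDA and delta receptors for glutamate, the GABA-A and glycine receptors that pass chloride, nicotinic acetylcholine receptors and the serotonin receptor of type 3. The metabotropic glutamate, muscarinic, dopamine and remaining serotonin receptors couple to G proteins. These genes are best known from neurons and, for some nicotinic subunits, from skeletal muscle, and pluripotent stem cells are not a cell type in which they are usually abundant.

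Counts totalled 93574214 to 213042064 per library, with wildtype 3 the deepest. Rows named by a symbol, among them every receptor gene, held only 0.328% to 0.375% of the counts. The rest lay under 13683 assembly IDs (MSTRG plus a number) that the table does not pair with symbols. Tested IDs had higher levels than tested symbols, as given below. Reads of a receptor gene may therefore be divided with an ID at the same locus. Of the 93 RefSeq mouse symbols that fit the stems, 75 had rows, and the other 18 were not analysed here. In wildtype 3 the 28 receptor genes tested below had a median log2 difference of 0.09 from wildtype 1 and 2, against 0.05 for tested symbols. None of the 8 stem cell markers looked for had a row under its symbol, so the labelled cell type was not checked in that way. In RNA from whole cultures, fewer cells of a type and less RNA per cell cannot be told apart.

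Most of the receptor genes with rows were barely counted under their symbols in either genotype. Reads held by assembly IDs and the 18 symbols without rows could not be seen. The level of the family as a whole is therefore not known from these counts. Of the 75 genes, 7 had no count in any library: the muscarinic genes Chrm2 and Chrm5, Chrna6, Gabra6, Glra1, Glra3 and Grm7. A count of 0 allows up to 3 counts, or 0.0139 to 0.0321 CPM (counts per 1000000, on TMM-scaled library sizes) depending on the library, for counting error only. A further 19 had 1 to 9 counts over all 5 libraries, among them the AMPA subunit genes Gria1 with 7 counts and Gria2 with 1. Another 21 had 10 to 42 counts and did not pass the low-count filter. The filter left 28 genes, which were tested within the fit over all 16259 genes that passed. Low counts were common to rows named by a symbol, of which 3591 of 10855 passed the filter. Tested symbols had a median log2 CPM of −1.12, against 4.39 for tested assembly IDs. Per kilobase of annotated exon, tested genes ranged in wildtype cells from 0.00724 to 0.390 RPKM (CPM per kilobase) with a median of 0.0625, and in deleted cells from 0.00462 to 0.651 with a median of 0.0800. The highest wildtype levels per length were those of Chrnb1 (0.390 RPKM), Htr5b (0.354 RPKM), Htr3a (0.320 RPKM) and Glrb (0.272 RPKM). A read that spans several exon bins is counted in each, so genes of many short bins are raised on this scale.

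At an adjusted p under 0.05 with edgeR, 5 of the 28 tested genes rose in the deleted cells, 3 fell and 20 did not pass. The higher genes were Grin1, Grin1os, Gria4, Gabrr1 and Htr5b, and the lower genes were Gria3, Grik4 and Htr3a. These 8 make 28.6% of the tested receptor genes. Of all tested genes 39.5% passed the threshold (19.9% higher and 19.6% lower), and of the 3591 tested symbols 31.8% did (18.9% higher and 12.9% lower). The receptor genes thus changed about as often as other genes with symbols. The groups of libraries did not overlap in 11 receptor genes with higher and 7 with lower levels in the deleted cells, where 32.8% and 24.2% of tested symbols did so (57.0% in all). The median log2 fold change (deleted minus wildtype) of the 28 genes was −0.01, against 0.07 for all tested symbols, and 14 of the 28 were above 0. All 8 called genes had at least 10 counts in every library. The counts rest on single libraries: without deleted 1, 2 of 32 tested receptor genes passed (6.25%), and without deleted 2, 2 of 33 (6.06%). In both cases these were Grin1 and Htr5b. The same settings left 14.1% and 15.6% of tested symbols past the threshold. Without wildtype 3, 7 of 26 passed (26.9%, against 35.5% of symbols).

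**Figure D1:**
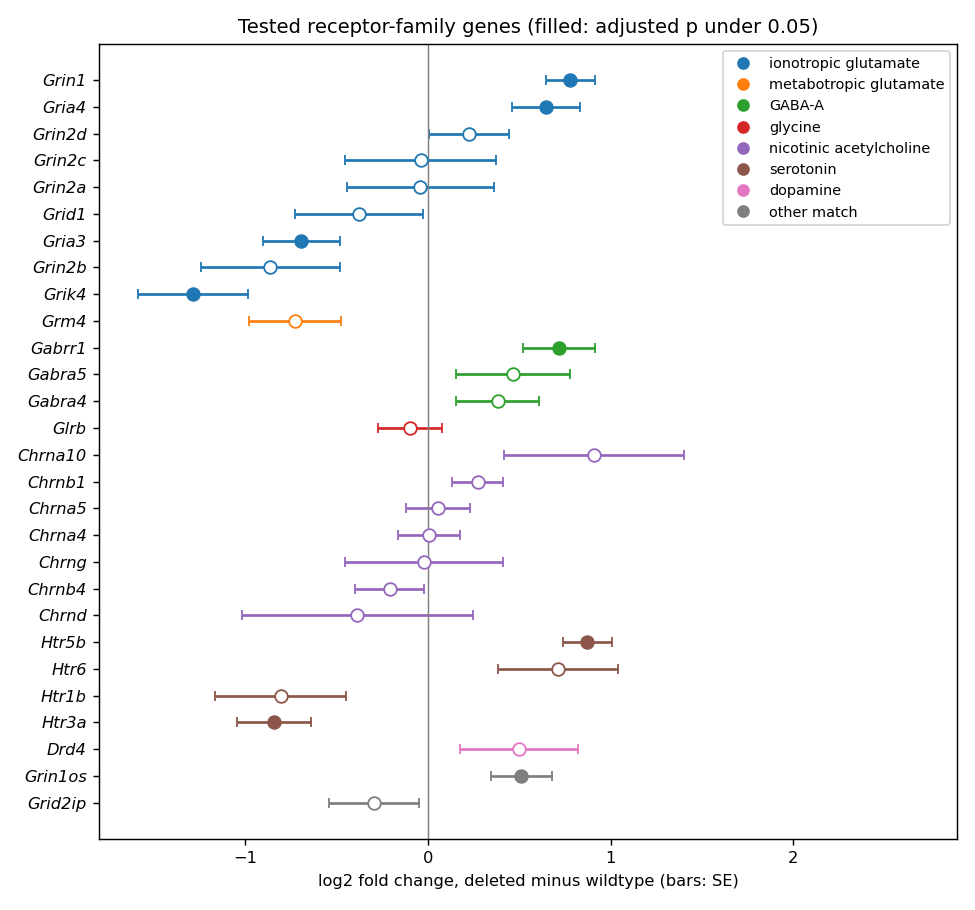
The log2 fold change (deleted minus wildtype, x axis) with its standard error is plotted for the 28 tested genes, grouped by receptor class. Filled points mark the 8 genes with edgeR adjusted p under 0.05, and Grik4 lies farthest below 0 at −1.29.

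Among the glutamate channels, Grin1 had the lowest adjusted p. It encodes the subunit that every NMDA receptor needs. Its level was 1.78, 1.57 and 2.05 CPM in wildtype 1 to 3 and 2.98 and 3.24 CPM in deleted 1 and 2. Both deleted libraries lay above all wildtype libraries. The wildtype mean of 1.80 ± 0.242 CPM (SD, n = 3) compares with 3.11 ± 0.185 CPM in deleted cells (SD, n = 2), and the log2 fold change was 0.78 ± 0.13 (SE, with an edgeR adjusted p of 0.00297). This was a 1.72-fold difference. Grin1os, whose locus overlaps Grin1 on the other strand in GENCODE vM21 (build GRCm38), stood at 0.530, 0.604 and 0.694 CPM in wildtype and at 0.879 and 0.878 CPM in deleted cells. Its log2 fold change was 0.51 ± 0.17 (SE, with an edgeR adjusted p of 0.0438). The strand setting of the counting is not given in the sources used here, so reads of Grin1 and Grin1os cannot be told apart where they overlap. Of the Grin1os counts, 81.3% lay in 1 bin. Its call was lost in 8 of 14 alternative settings, and on omission of any library but wildtype 3 (edgeR adjusted p up to 0.175).

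Of the 4 genes for the NMDA partner subunits that bind glutamate and set the channel's kinetics, none passed the test. Grin2d had a log2 fold change of 0.23 ± 0.22 (SE, with an edgeR adjusted p of 0.450), with 0.362 to 0.534 CPM in wildtype and 0.579 and 0.545 CPM in deleted cells. Its locus overlaps the coding gene Kdelr1 on the other strand. Grin2b pointed the other way, at 0.137, 0.219 and 0.255 CPM in wildtype 1 to 3 and 0.129 and 0.101 CPM in the deleted libraries. Its groups did not overlap, but the log2 fold change of −0.86 ± 0.38 (SE, with an edgeR adjusted p of 0.111) did not pass, though omitting wildtype 1 brought it past the threshold (−1.08; edgeR adjusted p = 0.0447). Grin2a and Grin2c, which fall outside the rule for named genes and are given for completeness, had −0.04 ± 0.40 and −0.04 ± 0.41. Grin3a, the glycine-binding subunit gene, had 6, 6 and 11 counts in wildtype and 1 and 2 in deleted libraries and was not tested. Per length, Grin1 at 0.185 RPKM stood above Grin2d at 0.0715 and Grin2b at 0.00818 RPKM in wildtype cells.

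Of the AMPA receptor genes, the channels of fast excitatory transmission, the 2 that could be tested changed in opposite directions. Gria4 was at 0.410, 0.367 and 0.486 CPM in wildtype 1 to 3 and at 0.654 and 0.686 CPM in the deleted libraries, which were both higher than every wildtype library. Its rise on the log2 scale was 0.65 ± 0.19 (SE, with an edgeR adjusted p of 0.0270). Gria3, on the X chromosome, was at 0.458, 0.464 and 0.574 CPM in wildtype and at 0.332 and 0.293 CPM in deleted cells. It fell by 0.69 ± 0.21 on the log2 scale (SE, with an edgeR adjusted p of 0.0343), again with no overlap. Both are calls near the threshold. Omission of any library but wildtype 3 ended that of Gria4 (edgeR adjusted p = 0.0685 to 0.148), and any other than wildtype 1 that of Gria3 (edgeR adjusted p = 0.0516 to 0.171). Gria3 also did not pass with DESeq2 (adjusted p = 0.0728).

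Grik4, a high-affinity kainate receptor subunit gene, had the largest fall of the tested receptor genes. It was at 0.257, 0.367 and 0.393 CPM in wildtype 1 to 3 and at 0.139 and 0.141 CPM in the deleted libraries, from 32, 42 and 85 against 13 and 14 counts. The log2 fold change was −1.29 ± 0.30 (SE, with an edgeR adjusted p of 0.0123), a level 2.44-fold lower in deleted cells. Omitting deleted 1 or deleted 2 ended the call (edgeR adjusted p = 0.0801 and 0.0743), with log2 fold changes of −1.28 and −1.32. Grik2, another kainate subunit gene, had 2 to 6 counts per library, and Grik1 had 1 count in all. Grid1, a delta receptor gene whose product acts at synapses as an adhesion partner more than as a channel, had −0.38 ± 0.35 on the log2 scale (SE, with an edgeR adjusted p of 0.432). Grid2ip had −0.30 ± 0.25 (SE, with an edgeR adjusted p of 0.382).

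Among the metabotropic glutamate receptor genes only Grm4, a receptor that lowers transmitter release at nerve endings, was tested. It was at 0.434, 0.709 and 0.569 CPM in wildtype 1 to 3 and at 0.343 CPM in both deleted libraries. Its log2 fold change of −0.73 ± 0.25 lay just outside the threshold (SE, with an edgeR adjusted p of 0.0521) although the libraries did not overlap. It passed in 4 of 14 alternatives: without wildtype 1 (edgeR adjusted p = 0.0219), with scaling on symbols only (0.0307), with the replicate block (0.0398) and with no low-count filter (0.0455). In its most counted bin the log2 fold change was 0.22 (edgeR adjusted p = 0.631). Grm8 had 4 to 10 counts per library and Grm5 2 to 15, the most in the deepest library.

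**Figure D2:**
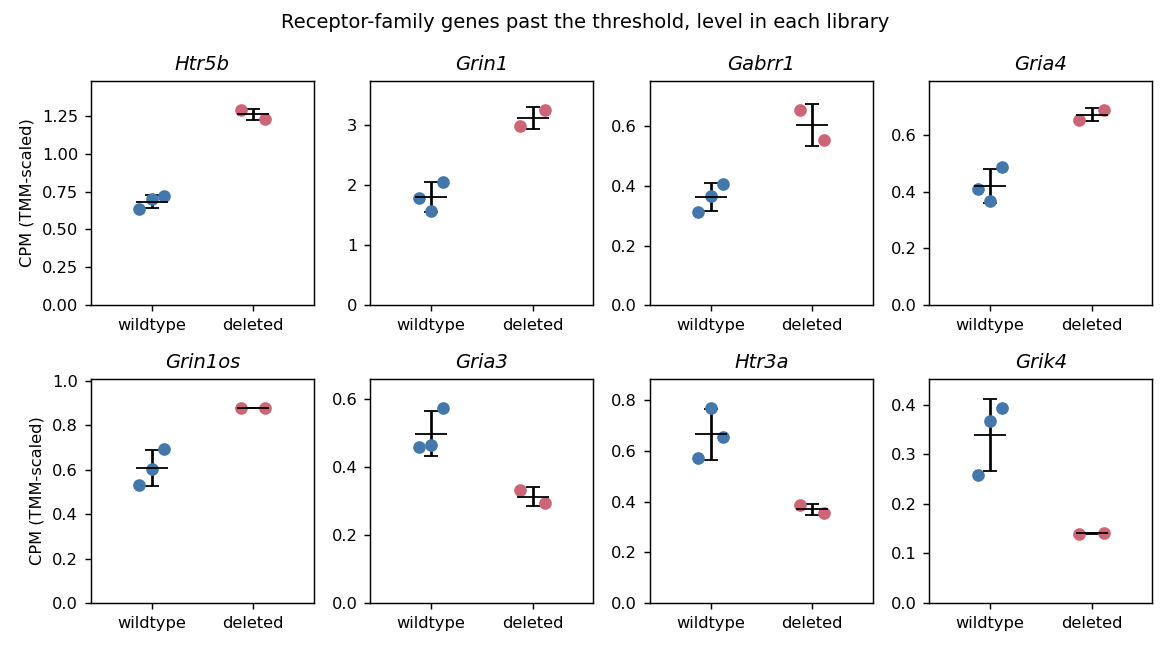
CPM in each library (points), with group mean and SD (bars; n = 3 wildtype, n = 2 deleted), are plotted for the 8 genes past the threshold on axes that start at 0. In each of the 8 the deleted libraries lie wholly above or wholly below the wildtype libraries, as in Grin1 at 2.98 and 3.24 against 1.57 to 2.05 CPM.

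The sequences just upstream of the annotated starts of 4 of the called receptor genes are shown. They let 3 that rose (Grin1, Gria4 and Gabrr1) be read beside 1 that fell (Grik4). Each is the 250 bases before the start, 5′ to 3′ on the gene's strand, from RefSeq's promoter table of build GRCm38.p6. Promoters of 53 of the 75 genes were in that table. The build differs from the authors' mm9, and no reads were placed on these bases. The windows are chr2:25319188-25319437 (minus strand) for Grin1, chr9:4796235-4796484 (minus strand) for Gria4, chr4:33132306-33132555 (plus strand) for Gabrr1 and chr9:42944372-42944621 (minus strand) for Grik4. Capitals mark matches on either strand to a GC box (GGGCGG, or CCGCCC on the other strand), an E-box (CACGTG, its own reverse complement) or a TATA box (TATAAA or TTTATA).
Grin1: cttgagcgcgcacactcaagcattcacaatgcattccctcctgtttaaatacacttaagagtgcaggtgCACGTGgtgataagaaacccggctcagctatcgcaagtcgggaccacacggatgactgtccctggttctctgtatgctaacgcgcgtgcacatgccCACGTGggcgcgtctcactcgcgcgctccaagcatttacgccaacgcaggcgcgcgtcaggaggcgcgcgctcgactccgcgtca
Gria4: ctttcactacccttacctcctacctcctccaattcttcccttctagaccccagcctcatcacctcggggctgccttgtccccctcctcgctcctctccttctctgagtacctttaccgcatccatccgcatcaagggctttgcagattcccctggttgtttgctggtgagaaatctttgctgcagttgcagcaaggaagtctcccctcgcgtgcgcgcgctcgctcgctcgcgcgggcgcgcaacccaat
Gabrr1: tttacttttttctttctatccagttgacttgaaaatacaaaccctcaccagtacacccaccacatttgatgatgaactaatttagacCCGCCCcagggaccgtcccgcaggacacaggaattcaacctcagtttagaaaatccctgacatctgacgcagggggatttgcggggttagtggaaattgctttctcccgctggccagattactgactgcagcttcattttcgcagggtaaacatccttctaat
Grik4: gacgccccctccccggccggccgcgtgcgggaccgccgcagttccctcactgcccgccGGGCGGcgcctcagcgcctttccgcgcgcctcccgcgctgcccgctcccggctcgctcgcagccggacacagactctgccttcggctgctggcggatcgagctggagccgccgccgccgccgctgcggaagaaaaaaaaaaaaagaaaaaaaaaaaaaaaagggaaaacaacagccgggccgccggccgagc
Grin1 held 2 E-box matches and 27 CpG pairs, Gria4 no match and 16 CpG pairs, Gabrr1 1 GC box and 7 CpG pairs, and Grik4 1 GC box and 36 CpG pairs. Of all 32851 windows of this length, 6.02% held the E-box, 32.7% the GC box and 12.4% the TATA box, and the median window had 6 CpG pairs. The 3 rising genes shown thus shared none of these 3 motifs across all of their windows. Windows of Htr5b and Grin1os, which also rose, are not shown. Of the 63 windows of receptor-family genes, 49.2% held the GC box, 1.59% the E-box and 4.76% the TATA box. Their median was 9 CpG pairs. A match describes letters and no site of binding.

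All 3 tested GABA-A family genes had positive fold changes, and Gabrr1 passed. Gabrr1 encodes the rho-1 subunit, known from the retina, where it forms chloride channels of its own. It was at 0.314, 0.367 and 0.407 CPM in wildtype 1 to 3 and at 0.654 and 0.555 CPM in the deleted libraries. Its rise was a log2 fold change of 0.72 ± 0.20 (SE, with an edgeR adjusted p of 0.0227), and leaving out any 1 library except wildtype 3 took the adjusted p above the threshold (0.0522 to 0.160 with edgeR). Gabrr2, the next coding gene on chromosome 4, had 3 counts, all in wildtype 3. Gabra4 and Gabra5 encode alpha subunits of receptors outside the synapse. Gabra4 had 0.297, 0.376 and 0.375 CPM in wildtype and 0.536 and 0.384 CPM in deleted cells, a log2 fold change of 0.38 ± 0.23 (SE, with an edgeR adjusted p of 0.222), and 56.6% of its counts lay in 1 bin. Gabra5 had 0.46 ± 0.31 (SE, with an edgeR adjusted p of 0.273) with overlapping groups. The Gabra4 locus overlaps the beta subunit gene Gabrb1 on the other strand in GENCODE vM21.

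Of the GABA-A genes that were not tested, Gabrb2 had the most counts, 10, 7 and 19 in wildtype and 2 and 4 in deleted libraries. Gabrg1 had 6, 5 and 20 against 4 and 4. The beta and gamma subunits that most GABA-A receptors contain were thus measured too thinly to compare. For glycine receptors, Glrb, the beta subunit that anchors the receptor at synapses, was at 1.52, 1.12 and 1.16 CPM in wildtype and 1.09 and 1.26 CPM in deleted cells. Its log2 fold change of −0.10 ± 0.17 did not pass (SE, with an edgeR adjusted p of 0.691). The alpha subunits that bind glycine were near 0, with 9 counts over all libraries for Glra2 and none for Glra1 and Glra3.

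The nicotinic acetylcholine receptor genes were the class with most tested members beside the ionotropic glutamate genes, and none of the 7 passed. Chrnb1, the beta subunit of the muscle receptor, was at 1.08, 0.980 and 0.898 CPM in wildtype 1 to 3 and at 1.20 and 1.17 CPM in the deleted libraries. The groups did not overlap, yet the log2 fold change was only 0.27 ± 0.14 (SE, with an edgeR adjusted p of 0.163). Chrnd and Chrng, genes of the delta and gamma subunits of the muscle receptor, neighbours on chromosome 1 and named here outside the rule, had 3 to 16 and 6 to 19 counts per library, with log2 fold changes of −0.39 ± 0.63 and −0.02 ± 0.43. Chrne, the subunit of the adult end plate, had 3 counts in all.

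Of the neuronal nicotinic subunits, Chrna5, Chrna3 and Chrnb4 lie side by side on chromosome 9. Chrna5 was at 0.788, 0.700 and 0.727 CPM in wildtype and 0.879 and 0.656 CPM in deleted cells, a log2 fold change of 0.05 ± 0.17 (SE, with an edgeR adjusted p of 0.832). Chrnb4, named outside the rule as part of this cluster, had −0.21 ± 0.19 (SE, with an edgeR adjusted p of 0.420). Chrna3, between them, had 13 counts in all libraries together. The 3 genes summed to 1.27 to 1.39 CPM in wildtype and 1.46 and 1.09 CPM in deleted libraries, with the wildtype values lying between the deleted ones. Chrna4, an alpha subunit of the commonest nicotinic receptor of the brain, was at 0.711 ± 0.0617 CPM in wildtype (SD, n = 3) and 0.715 ± 0.102 CPM in deleted cells (SD, n = 2). The fitted log2 fold change was 0.003 ± 0.17 (SE, with an edgeR adjusted p of 0.990). In the most counted bin alone, Chrnb1 rose (log2 fold change 0.52; edgeR adjusted p = 0.0448) and Chrnb4 fell (−0.77; 0.0447 with edgeR). Chrna10, a subunit of inner-ear receptors also given outside the rule, had 8 to 13 counts per library, 75.5% of them in 1 bin, and overlaps the coding gene Art1 on the other strand. Its log2 fold change of 0.91 ± 0.49 did not pass (SE, with an edgeR adjusted p of 0.181). No muscarinic gene was tested, and Chrm3 had the most counts, 1 to 13 per library.

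Of the 4 serotonin receptor genes tested, 1 rose and 1 fell. Htr5b, a G-protein-coupled receptor gene that is intact in rodents, was at 0.635, 0.700 and 0.717 CPM in wildtype 1 to 3 and at 1.29 and 1.23 CPM in the deleted libraries. The mean was 0.684 ± 0.0434 CPM in wildtype (SD, n = 3) and rose to 1.26 ± 0.0385 CPM (SD, n = 2). The log2 fold change was 0.87 ± 0.14 (SE, with an edgeR adjusted p of 0.00199), a 1.83-fold difference. The call held in all 14 alternatives, with log2 fold changes of 0.80 to 1.08 and adjusted p-values of up to 0.0239. A transcript on the other strand overlaps the locus of Htr5b in GENCODE vM21 (Gm8217), as one does that of Htr3a (Gm32335), and reads of such pairs cannot be told apart without strand. Grin1 was the only other receptor gene called in every alternative, at 0.69 to 0.90 on the log2 scale and adjusted p-values of up to 0.0406.

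Htr3a, which encodes the subunit needed for all serotonin-gated channels, was at 0.571, 0.770 and 0.657 CPM in wildtype 1 to 3 and at 0.386 and 0.353 CPM in the deleted libraries. It fell by 0.85 ± 0.20 on the log2 scale (SE, with an edgeR adjusted p of 0.0136), a level 1.80-fold lower, with no overlap between groups. Omitting either deleted library ended the call (edgeR adjusted p = 0.0675 and 0.0845), and the most counted bin alone did not pass (edgeR adjusted p = 0.0839). Its neighbour Htr3b, which can only form channels together with Htr3a, had 5 counts in all. Htr1b, an autoreceptor gene of a single bin, had 16, 14 and 33 counts in wildtype and 8 and 7 in deleted libraries, a log2 fold change of −0.81 ± 0.36 (SE, with an edgeR adjusted p of 0.112). Htr6 had 0.71 ± 0.33 (SE, with an edgeR adjusted p of 0.123), with 80.4% of its counts in 1 bin. In both the groups did not overlap. Htr5a, the relative of Htr5b, had 6, 8 and 17 counts in wildtype and 4 and 3 in deleted libraries, and Htr4 had 2 to 11 counts per library.

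Drd4, a dopamine receptor gene of the type that lowers cyclic AMP, was the only dopamine receptor gene tested. It was at 0.104, 0.122 and 0.157 CPM in wildtype and at 0.214 and 0.162 CPM in deleted cells, a log2 fold change of 0.50 ± 0.32 (SE, with an edgeR adjusted p of 0.257). Drd4 lies on chromosome 7, as do Gabra5, Grin2d and Chrna10, and tested symbols of that chromosome had a median log2 fold change of 0.20. Its part in these values was not tested. Drd2 had 4 to 9 and Drd5 2 to 8 counts per library.

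Summed over all 75 genes, the receptor families took 13.2, 13.7 and 14.3 CPM in wildtype 1 to 3 and 15.9 and 15.4 CPM in the deleted libraries. Grin1 and Grin1os made up most of that gap. Without them the sums were 10.8, 11.5 and 11.6 CPM in wildtype and 12.1 and 11.3 CPM in deleted cells, which overlap. The 14 ionotropic glutamate genes took 3.95, 4.00 and 4.79 CPM against 5.24 and 5.41 CPM, and without Grin1 2.17, 2.43 and 2.74 against 2.26 and 2.17 CPM.

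Exon bins, the pieces into which the authors' table divides each gene, show how widely a change was spread over its gene. Bins share reads and are not replicates, so these are descriptions. The called genes were called on the sum of these bins, so the shared direction of their bins is in part fixed in advance. The share of bins not overlapping in other genes was not computed. In Grin1, 19 of the 20 bins with at least 10 counts had a higher mean in the deleted cells, and in 12 the groups did not overlap. The exception was bin 5. Both bins of Htr5b and all 6 such bins of Gabrr1 were higher. In Grik4 all 6 such bins were lower and in Htr3a 8 of 9 were. The AMPA genes were less even, with 10 of 13 bins higher in Gria4 and 9 of 12 lower in Gria3. In Gria4, 2 bins had deleted libraries wholly below the wildtype ones. Grm4 was lower in 9 of 10 bins but not in bin 2, its most counted.

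**Figure D3:**
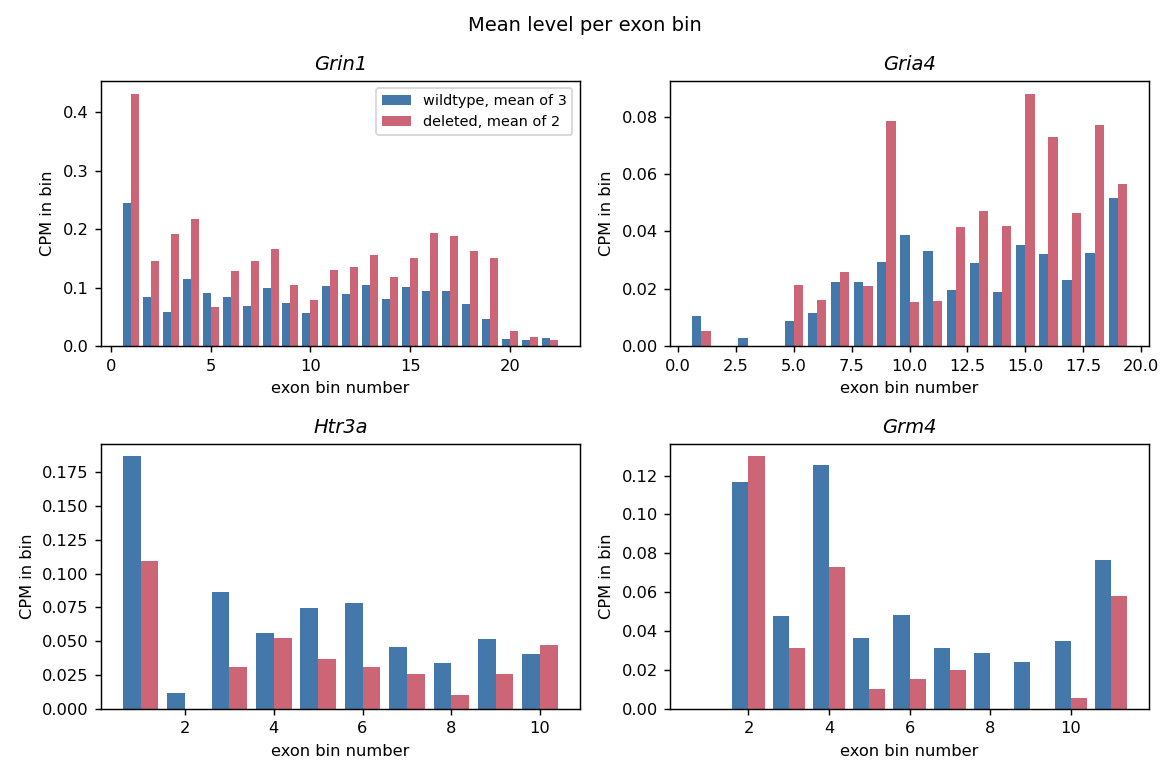
Mean CPM per exon bin (bin number on the x axis) in wildtype (blue, mean of 3) and deleted libraries (red, mean of 2) for Grin1, Gria4, Htr3a and Grm4. Red bars exceed blue ones in nearly every bin of Grin1, while in Grm4 bin 2 alone is higher in the deleted cells.

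The proteins that make, carry and anchor transmitters and their receptors were followed through 5 lists of 132 genes in all, of which 76 had rows and 50 were tested. Of these, 8 were higher and 12 lower (40.0%, against 31.8% of tested symbols), with a median log2 fold change of −0.13. Of those called, Gad2, Shisa6, Syn2 and Cplx2 had fewer than 10 counts in deleted libraries, Slc6a2 and Slc6a12 in a wildtype library and Cnih3 in both groups. Apart from Slc6a12, genes so thinly counted in their lower group reached the test through the other, so the share called is a description only. Slc6a12, with 13, 7 and 27 counts in wildtype 1 to 3, met the filter in wildtype 1 and wildtype 3 as well. Among the 38 with at least 10 counts in every library, 5 were higher and 8 lower. With that filter, 34.1% of tested symbols passed the threshold. Over all tested partner genes, the numbers called moved when a single library was left out, as given in the closing section. The counts per list below are likewise descriptions only, beside 18.9% of tested symbols that were higher and 12.9% that were lower. In the list of synthesis and breakdown, 3 of 7 were lower and none higher. Th, the rate-limiting enzyme of dopamine synthesis, stood at 0.491 ± 0.0299 CPM in wildtype (SD, n = 3) and at only 0.155 ± 0.0376 CPM in deleted cells (SD, n = 2), with a log2 fold change of −1.65 ± 0.24 (SE, with an edgeR adjusted p of 0.00151). Abat, which breaks down GABA, had −0.72 ± 0.09 and Gad2, which makes it, −1.87 ± 0.44, the latter with 55.7% of its counts in 1 bin. The Gad2 call was lost without deleted 2 (log2 fold change −1.53; edgeR adjusted p = 0.0975). Tph2, for serotonin synthesis in neurons, had 0.86 ± 0.34 (SE, with an edgeR adjusted p of 0.0782).

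Of 10 transporter genes, 4 were higher and 2 lower, where 18.9% and 12.9% of tested symbols were. The higher ones include Slc6a2 and Slc6a12, which had fewer than 10 counts in a wildtype library. Slc6a12 and Slc6a13, GABA and betaine transporter genes on chromosome 6, both rose. Tested symbols of that chromosome had a median log2 fold change of 0.10. Where these genes lie relative to the deleted super-enhancer was not examined, so the part of a local effect was not tested. Slc6a12 was at 0.104, 0.0612 and 0.125 CPM in wildtype and 0.729 and 0.636 CPM in deleted cells, a log2 fold change of 2.73 ± 0.27 (SE, with an edgeR adjusted p of 0.000321). Slc6a13 had 1.01 ± 0.15. Slc17a7, the vesicular glutamate transporter gene, rose by 0.65 ± 0.13 and Slc6a9, a glycine transporter gene, fell by 0.76 ± 0.15 on the log2 scale. Among 11 auxiliary subunit and chaperone genes, 2 were higher and 3 lower. Neto2, a kainate receptor auxiliary protein, had 0.45 ± 0.10; the median over tested symbols of its chromosome, 8, was 0.52, and the part of that shift was not tested. Cnih3, an AMPA receptor auxiliary protein, had 1.75 ± 0.46 at 0.0290 against 0.0987 CPM. Cacng4, another, had −0.90 ± 0.28 and Shisa7, an inhibitory receptor auxiliary protein, −0.33 ± 0.10.

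Of 10 scaffold and adhesion genes, 1 was higher and 2 lower. Homer2, which binds metabotropic glutamate receptors, had a log2 fold change of 0.48 ± 0.08, from 11.4 to 16.0 CPM. Homer2 lies on chromosome 7, as do Slc17a7, which rose, and Th and Shisa7, which fell. Tested symbols of that chromosome had a median log2 fold change of 0.20, and the part of that shift was not tested. Shank3, a scaffold of the excitatory synapse, had −0.58 ± 0.10, and Nptx1, a secreted protein that gathers AMPA receptors, −1.18 ± 0.29. Nlgn3 had −0.29 ± 0.13 (SE, with an edgeR adjusted p of 0.129). Of 12 release genes, 1 was higher and 2 lower. Syn2, a synaptic vesicle phosphoprotein gene, fell from 0.211 to 0.0211 CPM, where deleted 1 and deleted 2 held 3 and 1 counts against 27, 28 and 37 (edgeR adjusted p = 0.00243). Cplx2, a regulator of vesicle fusion, had −1.33 ± 0.38 and the vesicle glycoprotein gene Sv2a 0.46 ± 0.10. Stx1a had 0.29 ± 0.10 (SE, with an edgeR adjusted p of 0.0551).

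Many of these partner calls needed both deleted libraries. Omitting deleted 2 ended those of Slc17a7, Slc6a9, Nptx1, Sv2a and Cacng4, at edgeR adjusted p-values of 0.0734, 0.0502, 0.114, 0.0747 and 0.207. Omitting deleted 1 ended that of Neto2 (edgeR adjusted p = 0.0885). Omitting either ended those of Cnih3 (edgeR adjusted p = 0.0981 and 0.106), Shisa7 (0.151 and 0.105) and Cplx2 (0.121 and 0.127). Omitting wildtype 1 ended the call of Shisa7 (edgeR adjusted p = 0.0538), and omitting wildtype 2 those of Cacng4 (0.0587) and Cplx2 (0.0554). With DESeq2, Cnih3 (adjusted p = 0.0622) and Cplx2 (0.0549) did not pass.

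Markers of cell types that carry many of these receptors were read beside them. Of all tested symbols, 18.9% were higher and 12.9% lower, and the counts called per marker list are descriptions. Of 9 neuron markers with rows, 7 were tested, of which Elavl3 was higher (log2 fold change 0.80 ± 0.12) and Rbfox3 lower (−0.73 ± 0.19), while Nefm and Snap25 had edgeR adjusted p-values of 0.0502 and 0.0873. Their summed level was 7.62 to 9.67 CPM in wildtype and 9.27 to 9.45 CPM in deleted libraries. Dcx and Neurog2, which mark young neurons and their precursors, had 2 counts each. Neither tested neural progenitor marker passed (Nes and Olig2; sum 1.98 to 3.75 against 1.91 to 2.38 CPM). Of 4 glia markers with rows only Gfap was tested and it was lower (−0.68 ± 0.18; sum 0.683 to 0.788 against 0.450 to 0.545 CPM). Of 4 tested skeletal muscle markers 1 was higher, the embryonic myosin gene Myh3 (1.14 ± 0.27; sum 0.954 to 1.39 against 1.81 to 2.25 CPM), with Myf5 at 1 count in all. Myh3 itself went from a mean of 0.689 to 1.57 CPM, about as much as the sum. Acta1, the skeletal actin gene, lay lower in both deleted libraries than in all wildtype ones (log2 fold change −0.42, with an edgeR adjusted p of 0.251). In its most counted bin Acta1 passed (−1.77, with an edgeR adjusted p of 0.0212). Myog went the other way and lay higher in both deleted libraries (0.80, with an edgeR adjusted p of 0.165). Ckm had 0.40 with overlapping groups (edgeR adjusted p = 0.598). Among fibroblast markers, Col1a2 and Col6a1 were higher of 4 tested (sum 6.00 to 8.25 against 8.004 to 8.12 CPM). Col6a1 had 4, 3 and 10 counts in wildtype 1 to 3 and 9 and 22 in deleted 1 and 2. It thus reached the test through the group where it was high, and its call is a description only. Omitting either deleted library ended the marker calls of Rbfox3, Gfap and Myh3, omitting deleted 1 that of Col1a2 and omitting deleted 2 that of Col6a1, at edgeR adjusted p-values of 0.0516 to 0.183. Omitting wildtype 2 also ended that of Gfap (edgeR adjusted p = 0.0562). The part of these cell types in the receptor changes was not tested.

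**Figure D4:**
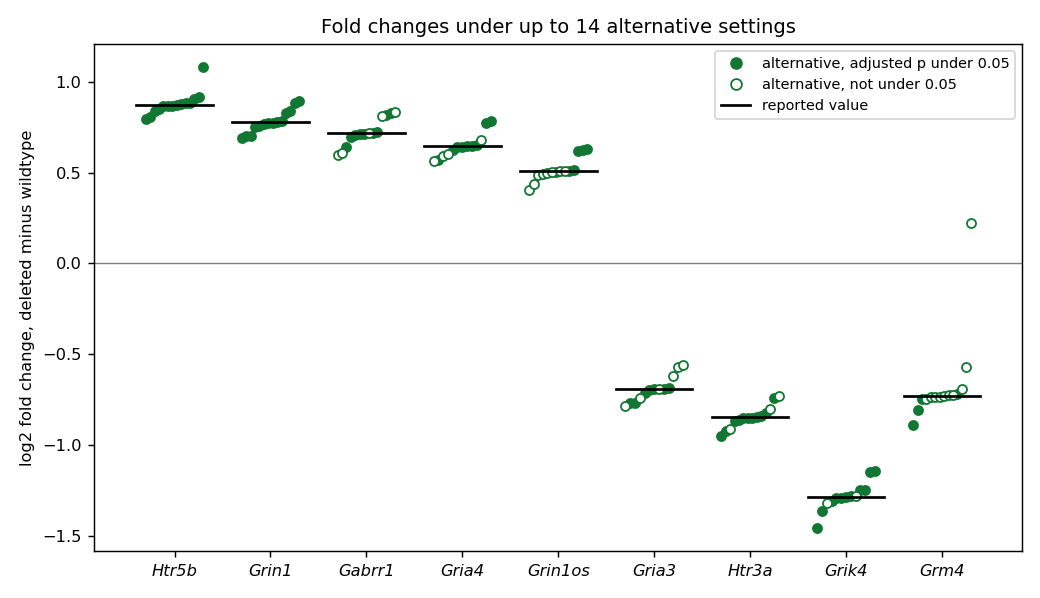
The log2 fold change (deleted minus wildtype, y axis) under each alternative setting (points, filled where adjusted p was under 0.05) is plotted beside the reported value (black line) for the 8 called genes and Grm4. All points of Htr5b and Grin1 are filled, and 1 point of Grm4, from its most counted bin, lies above 0 at 0.22.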

How the data were processed

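The deposited table holds whole-number read counts per exon bin, made by the authors for a test of exon usage. The submitters' processing notes name STAR and the mouse build mm9. For the annotation, the counter and the strand setting, nothing is given in the sources used here. Per the labels' protocols, RNA was extracted with Trizol and RNeasy columns and libraries were made with NEBNext Ultra. Per the series' design text there were 3 replicates for each condition, of which 2 deleted libraries were analysed here.

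Bin counts were summed per gene after 56 spike-in names were left out. Reads crossing bin borders enter more than 1 bin, so sums exceed read numbers and their counting error is understated. Genes passing edgeR's filterByExpr were scaled by TMM and tested with edgeR 4.0.16 (quasi-likelihood; R 4.3.3), deleted against wildtype, with Benjamini-Hochberg adjustment over all 16259 genes tested. The threshold was an adjusted p of 0.05. The SE is the log2 fold change divided by the square root of F. Levels per length used exon lengths of GENCODE vM21. One count equals 0.00463 to 0.0107 CPM, which sets the precision of the low genes. On simulated counts of 16098 genes with this design, 14.9%, 80.6% and 100% of genes changed 1.5-, 2- and 4-fold were recovered. The simulation gave every gene the same spread beyond counting error and drew the changed genes from all levels. The median log2 CPM was 3.46 over all tested genes and −1.12 over tested symbols. These rates were thus not measured at the low levels of the receptor genes.

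The members, gene lists and tests were chosen with earlier results of these data known. Text names every called receptor gene, up to 3 more tested genes per class by mean CPM, up to 2 untested genes per class by count and up to 4 tested genes per list by p. Genes named beyond this rule were chosen after their values were seen. Alternatives were other scaling factors, scaling on symbols only, other low-count filters, the most counted bin per gene, DESeq2 1.42.0, limma-voom (limma 3.58.1), the replicate number as a block and each library left out.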

Additional observations from a re-analysis of the deposited data

How the results depend on the processing

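With 2 deleted libraries, single libraries set most counts. Leaving out each library in turn gave 3206 to 8282 genes past the threshold over all genes (6421 with all 5), 2 to 5 receptor genes higher (5 with all) and 0 to 5 lower (3 with all). The partner genes ranged from 4 to 9 higher (8 with all) and from 4 to 11 lower (12 with all). The lone remaining deleted library is then assumed to vary like wildtype. In the most counted bin per gene, 1 receptor gene was lower and 5 partner genes were higher, and 5 partner genes were higher with at least 10 counts in every library. Fewer genes were tested in both.

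Some receptor genes changed sign, in values on the log2 scale. Grm4, at −0.73 as reported, was at 0.22 in the most counted bin. Chrna5 was at −0.024 with scaling on symbols only, −0.30 in the most counted bin and −0.17 to 0.23 with a library left out. Chrna4 was at −0.002 with DESeq2 size factors in edgeR, −0.074 with symbols only, −0.018 with no filter, −0.0006 with DESeq2, −0.0038 with limma-voom, and between −0.17 and 0.14 with a library left out. Glrb was at 0.024 in the most counted bin, and Grin2c at 0.0201 with limma-voom and 0.013 with the replicate block. With libraries left out the ranges were −0.23 to 0.031 for Glrb, −0.91 to 0.0027 for Grid1, −1.41 to 0.21 for Chrnd, −0.58 to 0.35 for Chrng, −0.79 to 0.42 for Grin2a, and −0.99 to 1.06 for the muscle marker Ckm. The cause was not tested. Scaling on symbols only moved the share of called symbols that were higher from 59.5% to 51.0%.

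The replicate number as a block called 8250 genes, 5 receptor genes higher and 3 lower, and 8 and 10 partner genes. The labels state no pairing, and the deviations of same-numbered libraries had a correlation of −0.007 across 16259 genes. Under the replicate block Gria3 (−0.56, adjusted p = 0.0960) was lost and Grm4 (−0.72, adjusted p = 0.0398) gained with edgeR.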
